A study of Mus musculus with 18 samples.

Results

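*Hba-x*, *Hbq1b* and *Hbq1a*, the ζ-globin gene and the 2 θ-globin genes of the mouse α-globin locus, were examined as interaction partners of the upstream CTCF site HS-38, the R1 and R2 enhancers, and both adult α-globin promoters (viewpoint Hba-1 at *Hba-a1*, Hba-2 at *Hba-a2*). They are 3 of 2953 annotated genes of chromosome 11. Their members are the DpnII fragments that overlap each gene with 1 kb added on both sides, 13 for *Hba-x*, 8 for *Hbq1b* and 4 for *Hbq1a*. These 25 fragments belong to 140017 fragments of chromosome 11 with a count from the 5 viewpoints, and none lay within 1 kb of a viewpoint used. All 18 samples were Ter119+ erythroid cells from spleens of adult C57BL/6 mice, expanded by phenylhydrazine, which lyses red cells. Experiment 1 held 3 WT samples and 3 samples of ∆44/48, a homozygous CRISPR deletion within the CTCF sites HS+44 and HS+48 downstream of the locus. Experiment 2 held 3 samples each of WT, ∆θ1, ∆θ2 and ∆θ1/θ2, in which the CTCF sites before *Hbq1b* (θ1), before *Hbq1a* (θ2) or before both were edited on both alleles. In ∆θ1, ∆θ2 and at θ2 in ∆θ1/θ2, a repair template replaced the core of the CTCF motif and brought in a BamHI site, which also is a DpnII site. At θ1 in ∆θ1/θ2, bases were lost without that insertion.

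*Hba-x* encodes ζ-globin, the α-like chain of embryonic haemoglobin, which primitive erythroid cells of the yolk sac make and adult erythroid cells keep silent. The θ genes are α-like globin genes that lie beside each adult α gene, one in each copy of the duplicated unit, and no function of their product is established. CTCF bound close to a promoter can hold cohesin and so shape which elements meet. In Capture-C, fixed chromatin is cut with DpnII and ligated, and ligation products of a viewpoint fragment are enriched and sequenced, so a count is a unique ligation between the viewpoint and another fragment. It records contact, not transcription.

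On mm9 and the plus strand, *Hba-x* lies at chr11:32176400-32178116, *Hbq1b* at chr11:32186965-32187784 and *Hbq1a* at chr11:32200069-32200873. *Hba-x* starts 24.9 kb after R2, 30.5 kb after R1 and 37.9 kb after HS-38, and it is 7.00 kb before the Hba-1 viewpoint. *Hbq1b* starts 3.57 kb after Hba-1, and *Hbq1a* starts 3.85 kb after Hba-2. The bases replaced at θ1 (chr11:32186935-32186944) end 20 bp before *Hbq1b*, and those at θ2 (chr11:32200040-32200049) end 19 bp before *Hbq1a*. They are shown with their surroundings because the 89 bp around the edits carry 0 differences between the 2 sites, which limits which gene a read can be assigned to. Capitals mark the 10 replaced bases, and the stretch runs from 32186875 to 32186963 at θ1 and from 32199980 to 32200068 at θ2 on the NCBIM37 plus strand:
θ1 and θ2 sites: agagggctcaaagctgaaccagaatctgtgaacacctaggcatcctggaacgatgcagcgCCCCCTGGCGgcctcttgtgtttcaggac
The same 10 letters, on either strand, occur in 82 of 32851 RefSeq promoters of GRCm38.p6 (0.2496%). The DpnII fragments that hold the sites, chr11:32186469-32187032 at θ1 (564 bp) and chr11:32199493-32200137 at θ2 (645 bp), were 82.3% identical over 648 aligned columns. The next fragments downstream, which begin just inside each gene body and are 332 bp long in both copies, were 98.5% identical, and only 57.2% of their 50-base words were unique on chromosome 11. *Hba-x* shares much less, with 35.0% identity to *Hbq1a*, and its fragments of at least 50 bp were 93.5% to 100% unique by the same measure. Counts of *Hbq1b* and *Hbq1a* are therefore uncertain where reads could be placed in either copy.

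Depth was uneven, with 345162 to 1120609 counts for each sample of experiment 1 but 8820 to 232346 for those of experiment 2. The 3 ∆θ1 samples were the shallowest, with 8820 to 22935 counts and only 5328, 3537 and 1984 cis counts from the α-globin promoters. Their counts also lay on fragments richer in G and C, at a mean of 49.0% to 49.6% over cis fragments, against 46.7% to 47.9% in ∆θ2 and ∆θ1/θ2. The third WT sample of experiment 2 stood near ∆θ1, at 48.6%, and the other two WT samples were at 47.2% and 46.8%. Each result that rests on these samples is given below beside their values.

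Levels are given as density, counts per kb of fragment per 100000 cis counts of the same viewpoint and sample. In WT cells of experiment 1, *Hbq1b* had the highest density of the 3 genes from every viewpoint. From HS-38 it reached 741, 665 and 685 in replicates 1 to 3, *Hba-x* reached 357, 375 and 331, and *Hbq1a* reached 292, 280 and 296. Samples of neighbouring genes in this order did not overlap from any viewpoint. From R1 the means (± SD, n = 3) were 1063 ± 116 for *Hbq1b*, 497 ± 20.5 for *Hba-x* and 344 ± 32.9 for *Hbq1a*. From R2, a major α-globin enhancer, they were 843 ± 67.7, 644 ± 18.6 and 229 ± 9.37. From the promoters, with the counts of Hba-1 and Hba-2 summed, they were 1450 ± 94.5, 1045 ± 24.9 and 464 ± 21.6, and the WT samples of experiment 2 gave 1571 ± 162, 1040 ± 70.7 and 538 ± 71.2 from the same promoters.

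The order depended on how fragments were counted. Per fragment, *Hbq1a* came first from HS-38, with a mean of 353 counts per 100000 in cis against 259 for *Hbq1b* and 117 for *Hba-x*. From R1 and the promoters, *Hbq1a* and *Hbq1b* overlapped per fragment, at 419 and 395 from R1 and at 565 and 539 from the promoters, and *Hba-x* was lowest. Only from R2 was *Hbq1b* above *Hbq1a* per fragment, at 313 and 279. The window of *Hbq1a* ends in 1 long fragment of 2638 bp, which had 119 counts per kb from HS-38 and 63.8 from R2, the lowest density of its 4 fragments. Without it, an alternative chosen after its values were seen, *Hbq1a* had 489 ± 8.23 from HS-38 and 621 ± 73.7 from R1, above *Hba-x*, but 423 ± 18.4 from R2 and 855 ± 47.1 from the promoters, below *Hba-x* (SD, n = 3).

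**Figure D1:**
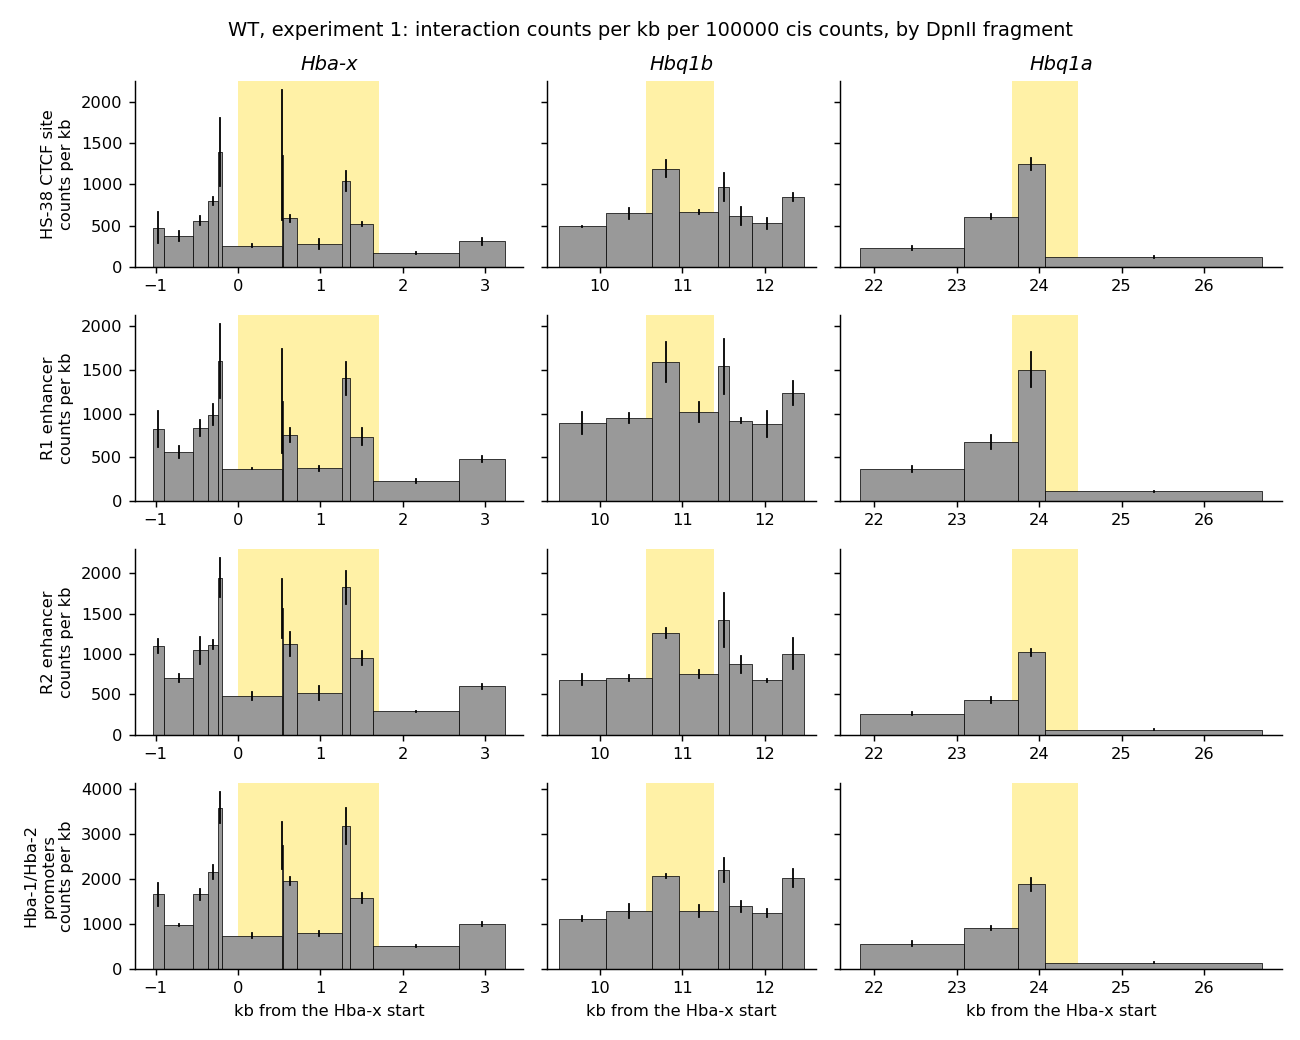
Mean density in the 3 WT samples of experiment 1 for each DpnII fragment (grey blocks, width to scale; black lines, SD) against the distance from the *Hba-x* start in kb, by viewpoint (rows) and gene (columns); gene bodies are shaded. In *Hbq1b* and *Hbq1a* the fragment of 332 bp inside the gene body stands highest from HS-38 and R1, and the long last fragment of *Hbq1a* is lowest throughout.

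Within the θ windows, the counts of both CTCF fragments were close from HS-38. The θ1 fragment had 378, 324 and 395 counts per 100000 in WT replicates 1 to 3, and the θ2 fragment had 409, 371 and 391. These ranges overlap, although θ2 is farther from HS-38. From R2 the θ1 fragment had 422, 386 and 387 and the θ2 fragment 309, 259 and 264, which do not overlap. The 332 bp fragments just downstream were the densest of their windows from HS-38, with 395 ± 34.5 counts per 100000 in *Hbq1b* and 415 ± 24.4 in *Hbq1a* (SD, n = 3). In *Hba-x*, the densest fragment from all 4 viewpoints of experiment 1 was one of 47 bp at chr11:32176156-32176202, upstream of the gene, with 65.4 ± 19.2 counts per 100000 from HS-38 and 168 ± 16.3 from the promoters. Longer fragments of *Hba-x* held more counts, with means of up to 187 per 100000 from HS-38 and 552 from the promoters. In WT of experiment 2 the densest was another short one, of 21 bp at chr11:32176929-32176949, with 115 ± 71.1 counts per 100000 from the promoters (SD, n = 3).

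Relative to *Hbq1b*, *Hba-x* was higher from R2 and the promoters than from HS-38 and R1. The log2 ratio of the 2 densities within a WT sample was -0.97 ± 0.13 from HS-38 and -1.09 ± 0.17 from R1, but -0.39 ± 0.13 from R2 and -0.47 ± 0.08 from the promoters (SD, n = 3). The log2 ratio of *Hbq1a* to *Hbq1b* was -1.27 ± 0.07 from HS-38, -1.63 ± 0.03 from R1, -1.88 ± 0.06 from R2 and -1.64 ± 0.04 from the promoters. These are descriptions of 3 samples, and no test was run between viewpoints.

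Whether loss of HS+44 and HS+48 alters contacts of the ζ and θ genes was asked in experiment 1. From HS-38, all 3 genes had lower values in ∆44/48, but none passed the test across all windows. *Hba-x* had a density of 302, 265 and 314 in ∆44/48 replicates 1 to 3, against 357, 375 and 331 in WT, and the groups did not overlap. *Hbq1b* had 512, 602 and 641 against 741, 665 and 685, again without overlap. *Hbq1a* had 256, 254 and 246 against 292, 280 and 296. The log2 fold changes were -0.27 (SE 0.09, 95% CI -0.46 to -0.09), -0.25 (SE 0.08, CI -0.41 to -0.09) and -0.20 (SE 0.10, CI -0.38 to -0.01). None passed edgeR's quasi-likelihood test over all 1209 gene windows at an adjusted p of 0.01, with adjusted p of 0.275, 0.250 and 0.80. edgeR called 5 of the 1209 windows (0.414%). All 3 genes had an unadjusted p under 0.05, as had 68 of the 1209 windows (5.62%), and DESeq2 called 0 of 3. All ∆44/48 samples lay below all WT samples in 66 of the 1209 windows (5.46%) and in 3 of 3 here. When the model was fitted and adjusted over windows within 1 Mb of the viewpoint only, *Hba-x* and *Hbq1b* passed. Their adjusted p from edgeR were 0.00257 and 0.00732, and *Hbq1a* did not pass, at 0.0347. The unadjusted p from edgeR changed too, from 0.0033 to 5.3e-04 for *Hba-x* and from 0.0027 to 0.0017 for *Hbq1b*. In that setting 9 of 34 windows were called (26.5%). TMM factors put the median of all windows at -0.11 in place of 0.00, and the 3 genes kept their sign under every scaling run.

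From the promoters, both θ genes had lower values in ∆44/48 without overlap and *Hba-x* was not separated, and none of the 3 passed. *Hbq1a* had 394, 374 and 394 in ∆44/48 and 485, 442 and 463 in WT, a log2 fold change of -0.26 (SE 0.07, CI -0.40 to -0.12). *Hbq1b* had 1304, 1215 and 1314 against 1559, 1386 and 1406, a log2 fold change of -0.18 (SE 0.06, CI -0.30 to -0.06). *Hba-x* overlapped, at 928 to 1061 against 1017 to 1064, with a log2 fold change of -0.07 (CI -0.19 to 0.05). Adjusted p from edgeR were 0.0735 for *Hbq1a*, 0.302 for *Hbq1b* and 0.999 for *Hba-x*, so 0 of 3 passed, where 5 of 1713 windows did (0.292%). 2 of 3 had an unadjusted p under 0.05, as had 6.36% of all windows, and DESeq2 called 0 of 3. 94 windows (5.49%) lay wholly below WT. Fitted and adjusted over windows within 1 Mb alone, *Hbq1a* passed in edgeR with an adjusted p of 0.00393, as 1 of 9 windows called among 38 (23.7%). The log2 ratio of *Hbq1a* to *Hbq1b* within a sample was -1.72 ± 0.02 in ∆44/48 and -1.64 ± 0.04 in WT, without overlap, for which the exact two-sided permutation test gave p = 0.1, the smallest it can give with 3 against 3 samples. Adjusted over the 24 tests of ratios and shares made here, that exact p was 0.60.

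From both enhancers the differences were closer to 0 than from HS-38, and for *Hbq1b* and *Hbq1a* also closer than from the promoters. *Hba-x* had log2 fold changes of -0.13 from R1 and -0.12 from R2, against -0.07 from the promoters. The difference between viewpoints was not tested. From R1, *Hba-x* had 433 to 463 in ∆44/48 and 475 to 516 in WT, without overlap (5.26% of windows lay wholly below WT), and *Hbq1b* and *Hbq1a* overlapped. From R2 all 3 genes overlapped. The log2 fold changes were between -0.13 and -0.04 from R1 and between -0.12 and -0.07 from R2, and the confidence intervals together ran from -0.34 to 0.17. edgeR called 0 of 3 from R1 (4 of 1159 windows, 0.345%) and 0 of 3 from R2 (4 of 1268, 0.315%), none with an unadjusted p under 0.05 (4.57% and 4.89% of all windows), and DESeq2 called 0 in both. When libraries were scaled to the counts within 1 Mb, the log2 fold changes of *Hbq1b* and *Hbq1a* from R1 and R2 turned to between 0.0087 and 0.047, while from HS-38 they stayed below 0 at -0.20 and -0.15 with *Hba-x* at -0.22.

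**Figure D2:**
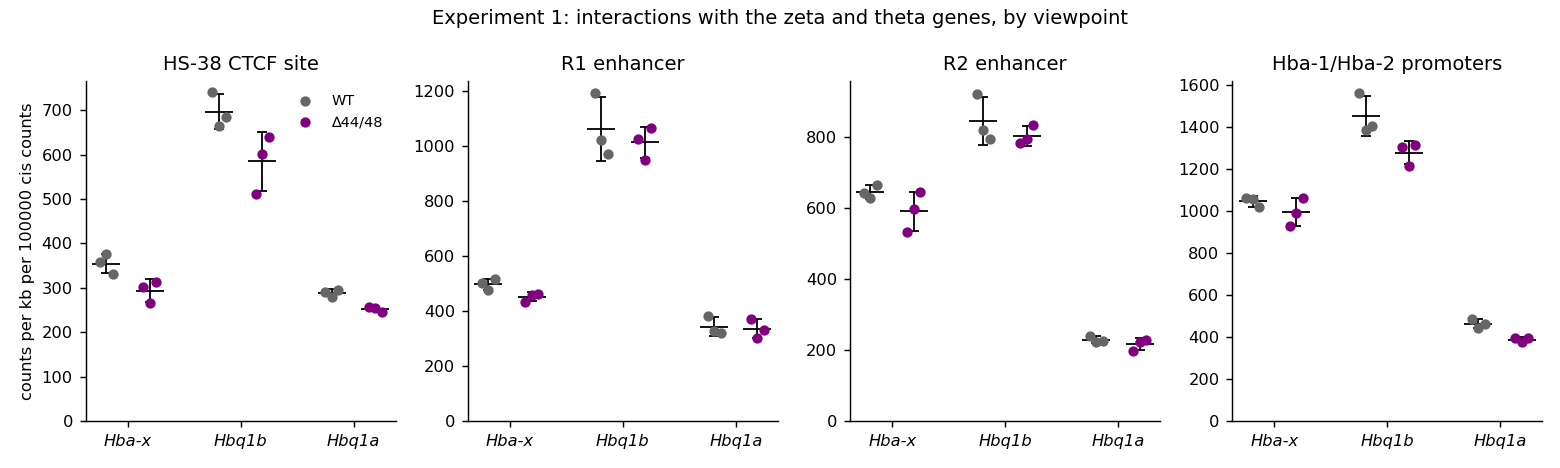
Density of interactions (counts per kb per 100000 cis counts) with the 3 genes in every WT (grey) and ∆44/48 (purple) sample of experiment 1, by viewpoint; bars give mean ± SD, n = 3. From HS-38 all ∆44/48 points lie below all WT points for the 3 genes, as they do from the promoters for *Hbq1b* and *Hbq1a*.

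By fragment, 23 of the 25 member fragments had a log2 fold change below 0 from HS-38, 21 from R1, 17 from R2 and 20 from the promoters, where the median over all fragments tested was 0.20, 0.15, 0.07 and 0.12. None passed the threshold in edgeR or DESeq2. From HS-38, edgeR called 17 of 2531 fragments (0.672%), and 6 of the 25 had an unadjusted p under 0.05, against 14.1% of all. The smallest adjusted p from edgeR was 0.0639, for chr11:32175857-32176030 upstream of *Hba-x*, with a log2 fold change of -0.77 (SE 0.25). 12 of the 25 lay wholly below WT, against 7.98% of all. The θ1 fragment had 254, 325 and 272 counts per 100000 in ∆44/48 and 378, 324 and 395 in WT, with overlap and an adjusted p from edgeR of 0.215 for its log2 fold change of -0.35. From the promoters, edgeR called 6 of 6787 fragments (0.0884%), 4 of the 25 had an unadjusted p under 0.05 (8.38% of all), 7 lay wholly below WT (6.44% of all), and the lowest log2 fold change among the 25 was that of the θ2 fragment, at -0.32 (SE 0.13, adjusted p 0.396). From R1 and R2, 0 of 1996 and 0 of 2296 fragments were called (0% in both), with 1 and 3 of the 25 at an unadjusted p under 0.05 (10.1% and 7.23% of all).

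The other 8 genes of the domain give the setting of these values. 2 of the 8 were higher in ∆44/48 from each of the 4 viewpoints, *Sh3pxd2b* and *Ubtd2*, which lie downstream of the deleted sites. From HS-38 their log2 fold changes were 1.24 (SE 0.08, adjusted p 3.90e-55) and 1.41 (SE 0.10, adjusted p 1.32e-37) in edgeR. *Nprl3*, whose introns hold R1 and R2, was lower from HS-38, at -0.17 (SE 0.04, adjusted p 0.00223), and was the only one of the 8 called lower from any viewpoint. *Hba-a1*, one of the adult α genes, had -0.38 from HS-38 (SE 0.09, adjusted p 0.0119). The median log2 fold change of the 3 ζ and θ genes was -0.25 from HS-38 and -0.18 from the promoters, that of the 8 genes -0.09 and -0.23, and that of all windows tested 0.00 and 0.06.

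In experiment 2 the CTCF sites beside the θ genes themselves were edited, and interactions were read from the promoters only. The 3 comparisons share the same WT samples. *Hba-x* had a density of 1005, 994 and 1121 in WT replicates 1 to 3, 1180, 1051 and 1143 in ∆θ1, 874 to 951 in ∆θ2 and 1002 to 1060 in ∆θ1/θ2. The ∆θ2 samples lay below all WT samples, and the others overlapped with WT. *Hbq1b*, beside θ1, had 1609, 1394 and 1711 in WT, 1345 to 1967 in ∆θ1, 1238 to 1496 in ∆θ2 and 1361 to 1668 in ∆θ1/θ2, all overlapping. *Hbq1a*, beside θ2, had 597, 459 and 558 in WT, 684 to 692 in ∆θ1, 471 to 529 in ∆θ2 and 469 to 601 in ∆θ1/θ2. Only ∆θ1 was separated from WT there, and its 3 values rest on 179, 118 and 67 counts. These are summed over both promoters, and a molecule can be listed under both.

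**Figure D3:**
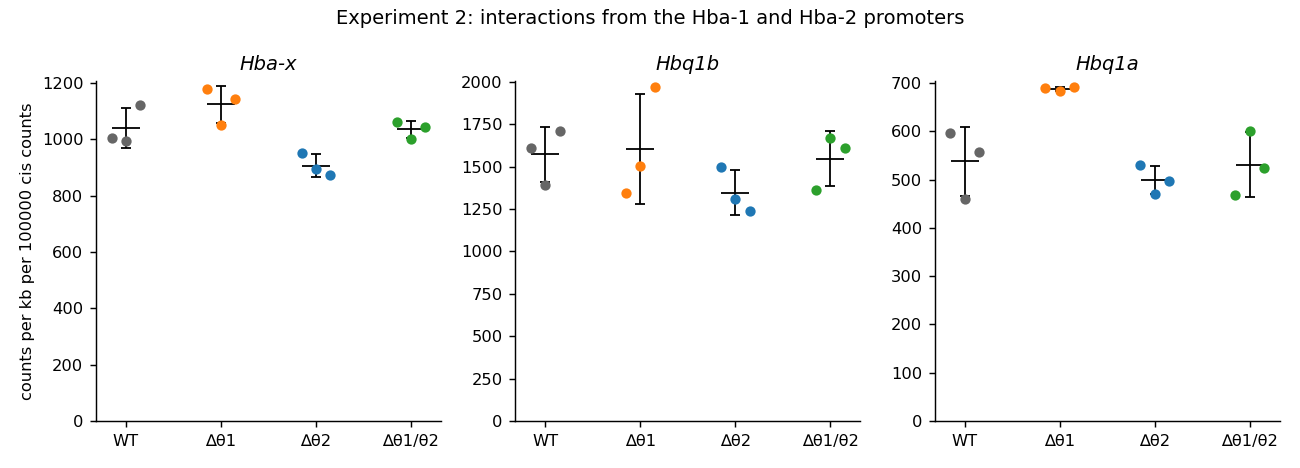
Density of interactions (counts per kb per 100000 cis counts) of the *Hba-a1* and *Hba-a2* promoters with each gene in every sample of experiment 2; points are samples, bars mean ± SD, n = 3. *Hbq1a* in ∆θ1 (684 to 692) lies above WT (459 to 597), and *Hba-x* in ∆θ2 (874 to 951) below WT (994 to 1121); the other groups overlap with WT.

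In ∆θ1 the log2 fold changes were 0.11 for *Hba-x* (CI -0.17 to 0.39), 0.02 for *Hbq1b* (CI -0.27 to 0.30) and 0.36 for *Hbq1a* (CI 0.03 to 0.69). edgeR called 0 of 3, with a lowest adjusted p of 0.458, DESeq2 called 0 of 3, and 1 of 3 had an unadjusted p under 0.05. edgeR called 0 of all 676 windows (0%), of which 56 (8.28%) had an unadjusted p under 0.05 and 25 (3.7%) lay wholly above WT. The sign of all 3 changed with the scaling. With TMM factors the log2 fold changes were -1.08, -1.21 and -0.84, and *Hba-x* and *Hbq1b* then passed in edgeR (adjusted p 1.04e-04 and 9.21e-06, 12 of 676 windows called, 1.78%), while the median over all windows moved from -0.01 to -1.15. With DESeq2 they were -0.33, -0.46 and -0.10, with the median at -0.45. Measured from the median of all windows, the 3 genes lay between -0.06 and 0.37 under the 3 scalings, and no direction is given here for ∆θ1.

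In ∆θ2 the log2 fold changes were -0.20 (CI -0.49 to 0.10), -0.22 (CI -0.51 to 0.07) and -0.11 (CI -0.43 to 0.21) for *Hba-x*, *Hbq1b* and *Hbq1a*. edgeR and DESeq2 called 0 of 3, none had an unadjusted p under 0.05 (4.62% of all windows), and edgeR called 0 of 1018 windows (0%). For *Hba-x*, which lay wholly below WT, the share of such windows was 3.93%. In ∆θ1/θ2 the log2 fold changes were -0.01 (CI -0.26 to 0.25), -0.02 (CI -0.27 to 0.23) and -0.02 (CI -0.30 to 0.26), with 0 of 3 called by either tool, none with an unadjusted p under 0.05 (3.51% of all windows), and 0 of 882 windows called by edgeR (0%). In none of the 3 genotypes did an interval reach a change of 1 on the log2 scale with cis counts as library size.

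**Figure D4:**
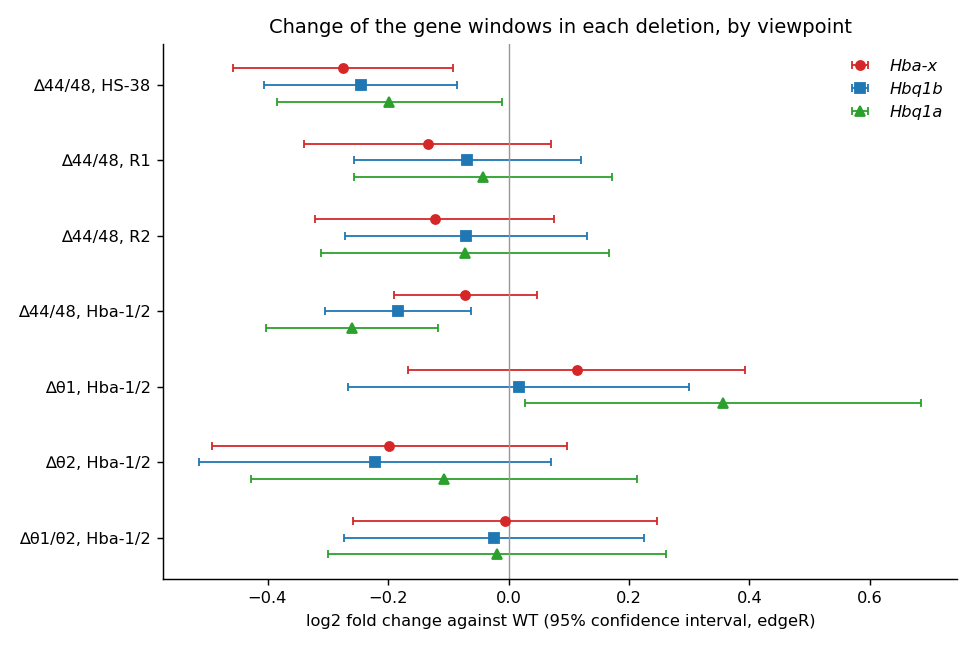
Log2 fold change of each gene window against the WT samples of its own experiment (points) with the 95% confidence interval from edgeR (lines), by deletion and viewpoint. The intervals of all 3 genes lie below 0 in ∆44/48 from HS-38 and those of *Hbq1b* and *Hbq1a* from the promoters, and that of *Hbq1a* in ∆θ1 lies above 0; in ∆θ1/θ2 all 3 are centred near 0.

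Over the 4 genotypes together, 0 of 3 genes passed for the θ1 edit, for the θ2 edit or for their interaction in edgeR, in which 0 of 1179 windows were called for each (0%). The log2 effects of the θ1 edit were between 0.11 and 0.22, those of the θ2 edit between -0.24 and -0.14, and those of the interaction between -0.27 and 0.18. No direction is given for them, since with TMM factors the θ1 edit went to -0.40, -0.47 and -0.33 (*Hba-x*, *Hbq1b*, *Hbq1a*) and the θ2 edit to 0.37, 0.41 and 0.28, while the medians of all windows went from -0.11 to -0.47 and from 0.01 to 0.34. For the θ2 edit 1 of 3 had an unadjusted p under 0.05 (4.83% of all windows), and for the θ1 edit (8.23% of all) and the interaction (7.38% of all) 0 of 3. DESeq2 called 1 of 3 for the interaction, *Hba-x*, with a log2 value of 0.59 (SE 0.13, adjusted p 0.00199), where it called 3 of 1179 windows (0.254%), and 0 of 3 for both edits. With TMM factors, edgeR called *Hba-x* and *Hbq1b* for the interaction, at 1.19 and 1.31, where the median of all windows was 1.30 and 8 of 1179 windows were called (0.679%). The interaction rests on the ∆θ1 samples. None of the 8 other genes of the domain passed in any comparison of experiment 2.

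In ∆θ1, fragments of 1 window moved in opposite directions, without passing edgeR's test. The 332 bp fragment in *Hbq1b* had 1426, 1696 and 1966 counts per 100000 in ∆θ1, against 913, 686 and 1295 in WT, without overlap and with the third WT sample highest. Its log2 fold change was 0.80 (SE 0.24, adjusted p 0.109 in edgeR), and without that WT sample it was 1.06 (adjusted p 0.00134, 6 of 561 fragments called, 1.07%). At the other end, chr11:32187832-32187969 downstream of *Hbq1b* had a log2 fold change of -2.53 (SE 0.75, adjusted p 0.109 in edgeR). It had 46 to 128 counts in WT and 0 to 5 in ∆θ1, where replicate 3 alone held any. Without ∆θ1 replicate 3 it passed in edgeR (adjusted p 0.00120, 2 of 630 fragments called, 0.317%), with no count left in that group and so no fold given. The fragment chr11:32177116-32177660 in *Hba-x* had 0.93 (SE 0.29, adjusted p 0.139), and DESeq2 called it, with an adjusted p of 0.00681 and 3 of 638 fragments called (0.47%). It was the only one of the 25 that DESeq2 called, and edgeR called 0 of 25 and 0 of 638 fragments (0%), with 9 of 25 at an unadjusted p under 0.05 against 12.4% of all. Across the 25 fragments these changes moved with GC content, with a Pearson r of 0.74, which was -0.19 for ∆θ2 but -0.18 for ∆θ1/θ2. The fragments share their libraries, and r is given as a description. Of the 25, 3 lay wholly above WT in ∆θ1 and 6 wholly below, and no share over all fragments is given. From the promoters, 1, 3 and 2 of the 25 fragments had no count in the 3 ∆θ1 samples, each of which allows up to 3 counts, and all 25 had counts in every other sample of both experiments. The part of base composition and depth in the ∆θ1 values was not tested.

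The fragment over the θ2 site held a smaller mean share of the *Hbq1a* window where θ2 was edited. It held 26.8%, 23.5% and 22.3% of the window's counts in WT replicates 1 to 3, 17.4%, 20.3% and 17.6% in ∆θ2 and 20.7%, 21.9% and 17.7% in ∆θ1/θ2. In ∆θ1, where θ2 is intact, it held 30.2%, 25.4% and 19.4%, and the last of these had a 95% Wilson interval of 11.7% to 30.4% from 13 of 67 counts. Such an interval is too narrow where a molecule is listed under both promoters. ∆θ2 and ∆θ1/θ2 both lay below WT in 3 of 3 samples, with means of 18.4% ± 1.60 and 20.1% ± 2.19 against 24.2% ± 2.37 (SD, n = 3). The exact permutation test gave p = 0.1 in each, the smallest possible for 3 against 3. With labels permuted within each state of θ1, the share with θ2 edited minus that with θ2 intact was -5.34 percentage points, exact permutation p = 0.02, where 0.005 is the smallest this test can give. Adjusted over the same 24 tests, this exact p was 0.48, so the difference did not pass. Without the flanks the difference was -3.77 points with p = 0.2 in the same exact test.

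The θ2 fragment had lower counts in ∆θ2 but overlapped with WT in ∆θ1/θ2, which carries the same θ2 edit. In counts per 100000, the θ2 fragment had 782, 526 and 606 in WT and 450, 466 and 427 in ∆θ2, without overlap, and 473, 643 and 451 in ∆θ1/θ2, with overlap (log2 fold change -0.29, CI -0.77 to 0.19). The 332 bp fragment next to it had 797, 589 and 950 in WT and 781, 583 and 618 in ∆θ2, which overlap. The log2 fold change of the θ2 fragment in ∆θ2 was -0.50 (SE 0.22, CI -0.94 to -0.07), with an unadjusted p of 0.0240 and an adjusted p of 0.540 in edgeR, which called 0 of the 25 fragments and 0 of 1415 in all (0%). 20 of the 25, which share their libraries, had a log2 fold change below 0 in ∆θ2. The median over all fragments was 0.14, and no share below 0 is given for them. The lowest of the 25 was -1.12 (SE 0.40) at chr11:32176929-32176949 in *Hba-x*, which is 21 bp long and had 25 to 37 counts in WT. 4 of the 25 had an unadjusted p under 0.05, against 7.42% of all, and DESeq2 called 0. 3 of the 25 lay wholly below WT in ∆θ2, the θ2 fragment among them, and no share over all fragments is given. With the edited fragments left out, the log2 fold change of *Hbq1a* in ∆θ2 was 0.00. The edit brings a DpnII site into this fragment, so that an edited allele yields a pair of shorter fragments, and this cannot be told apart from a change in contact.

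For the fragment over the θ1 site, all groups overlapped. It held 20.3%, 16.2% and 20.4% of the *Hbq1b* window's counts in WT, 18.8%, 21.5% and 18.97% in ∆θ1, 17.9%, 17.5% and 19.3% in ∆θ2 and 15.4%, 20.0% and 15.1% in ∆θ1/θ2. The θ1 edit, permuted within each state of θ2, changed the share by -0.30 points, exact permutation p = 0.77. In *Hbq1b* without flanks the same difference was -4.04 points with p = 0.035 in the exact test. In ∆θ1/θ2, edgeR called 0 of the 25 fragments and 0 of 1006 in all (0%), with 1 of 25 at an unadjusted p under 0.05 (5.47% of all) and 0 called by DESeq2.

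**Figure D5:**
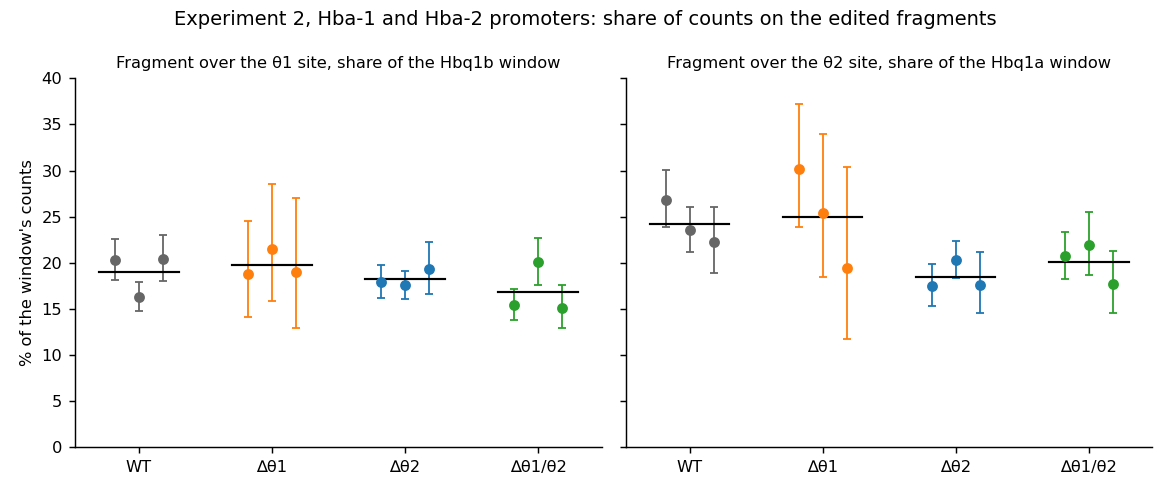
Share of the counts of the *Hbq1b* window on the fragment over θ1 (left) and of the *Hbq1a* window on the fragment over θ2 (right), from the promoters, in each sample of experiment 2; lines on points are 95% Wilson intervals, which cover counting error only, and black bars are group means. On the right, ∆θ2 (17.4% to 20.3%) and ∆θ1/θ2 (17.7% to 21.9%) lie below WT (22.3% to 26.8%), and ∆θ1 has the widest intervals.

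Of 7 comparisons of a deletion with its WT samples, the log2 ratio of *Hbq1a* to *Hbq1b* within a sample was separated in 1, that of ∆44/48 from the promoters given above, and the ratio of *Hba-x* to *Hbq1b* in 0. In experiment 2 the θ2 edit changed the ratio of *Hbq1a* to *Hbq1b* by -0.11 (exact permutation p = 0.37), and the θ1 edit changed that of *Hba-x* to *Hbq1b* by 0.05 (exact permutation p = 0.685).

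The genes whose levels moved most like these over the 12 samples of experiment 2 were sought among 184 windows of chromosome 11 with at least 10 counts per sample on average and no fragment in common. For *Hba-x* they were *Top3a*, *Mgat4b* and *Mpg*, with Pearson r of 0.82, 0.77 and 0.74. For *Hbq1b* they were *Top3a*, *Sept8* and *Ncor1* (0.84, 0.84 and 0.72), and for *Hbq1a* they were *Mprip*, *Trpv2* and *Rhbdf1* (0.87, 0.85 and 0.85). Among themselves, the 3 genes correlated at 0.55 (*Hba-x* with *Hbq1b* and *Hbq1b* with *Hbq1a*) and 0.66 (*Hba-x* with *Hbq1a*). *Mpg* and *Rhbdf1* lie in the same domain, with 637 and 946 counts per sample, and the others had 10 to 41.8 counts per sample. All points come from the same 12 libraries of unequal depth, so r is given as a description.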

How the data were processed

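The deposited files hold counts. Per the study's methods and the submitters' processing notes, the authors used Trim Galore for adaptors, FLASH for joining read pairs, an in silico DpnII digest, Bowtie for alignment (genome mm9) and Capture-C scripts that drop PCR duplicates. They deposited unique interaction counts per viewpoint and DpnII fragment, without normalisation and without fragments that have no count. Of 855952 listings on chromosome 11, 0 were no DpnII fragment of NCBIM37. Gene windows were made for all 2953 genes of GENCODE vM1 on chromosome 11, and fragments within 1 kb of a viewpoint were left out. Hba-1 and Hba-2 counts were summed. A molecule can be listed under both, so counting error is understated there.

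Windows and fragments with at least 10 counts over the samples compared entered the tests, run with edgeR 4.0.16 under R 4.3.3 (quasi-likelihood, cis counts as library size, Benjamini-Hochberg, adjusted p of 0.01). DESeq2, which the study's methods name in a later version, was run in version 1.42.0 as an alternative. Further alternatives are listed in the closing section. Ratios and shares were compared by exact two-sided permutation tests. Intervals for shares cover counting error only. Replicate numbers did not pair samples: deviations of same-numbered samples correlated at -0.23 to 0.11. p-values measure the spread between the samples, stated to be biological replicates. The members, the 8 other genes and the tests were chosen with earlier results of these data known. Genes named are the 3 members, these 8, and the 3 windows most like each member; fragments named are those over the edited sites, the densest in WT, those past the threshold and, chosen after their values were seen, those with the largest changes or next to an edited fragment. Summaries were made with Python 3.11.15.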

Additional observations from a re-analysis of the deposited data

Results flagged for a closer look

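For *Hba-x* and *Hbq1a*, ∆θ1 and ∆θ2 lay on opposite sides of the WT mean when counts were scaled to the cis total. *Hba-x* in ∆θ1 and *Hbq1a* in ∆θ2 overlapped with the WT samples. From the promoters, all 3 ∆θ1 samples lay above the WT mean of each gene and all 3 ∆θ2 samples below it. The mean log2 densities of ∆θ1 and ∆θ2 differed by 0.31 for *Hba-x* and by 0.47 for *Hbq1a*. The difference itself was tested, in a contrast added after these values were seen, in 1 edgeR fit of all 4 groups. ∆θ2 minus ∆θ1 was -0.31 (SE 0.13, adjusted p 0.606) for *Hba-x* and -0.46 (SE 0.15, unadjusted p 0.00180, adjusted p 0.247) for *Hbq1a*, so neither passed, and 1 of 1179 windows did. With DESeq2 or TMM factors the ∆θ1 values of both genes were below 0 too, at -0.33 and -0.10 or at -1.08 and -0.84. The ∆θ1 values rest on 97 to 269 counts of *Hba-x* and on 67 to 179 of *Hbq1a*, in libraries whose cis counts had a mean GC content of 49.0% to 49.6%, and their part in the difference was not tested.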

How the results depend on the processing

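Over all 10 comparisons of gene windows and 7 of fragments, the count of members called at an adjusted p of 0.01 was 0, and it was 0 too at 0.05 and with at least 30 counts or 1 count. For gene windows it was 0 also with an exclusion zone of 2 kb, without flanks, with fragments wholly within a window, without the fragment with the most counts and for each promoter alone. It differed in the following. Fitted and adjusted over windows within 1 Mb only, 2 of 3 genes passed in ∆44/48 from HS-38 (9 of 34 windows called) and 1 from the promoters (9 of 38). TMM factors gave 2 genes in ∆θ1 (12 of 676 windows) and 2 for the interaction (8 of 1179), and DESeq2 gave 1 for the interaction (3 of 1179) and 1 fragment in ∆θ1 (3 of 638). With the replicate block, 1 fragment passed in ∆θ1, the 332 bp fragment of *Hbq1b* (2 of 638 fragments called), and 0 genes or fragments in any other comparison. Leaving out single replicates gave 0 to 1 fragment in ∆θ1, with 1 without ∆θ1 replicate 3 (chr11:32187832-32187969, 2 of 630 called) and 1 without WT replicate 3 (the 332 bp fragment, 6 of 561 called).

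Signs turned under several alternatives. With counts within 1 Mb as library size, log2 fold changes in ∆44/48 became 0.018 (*Hbq1b*) and 0.047 (*Hbq1a*) from R1, 0.016 and 0.0087 from R2, and 0.016 for *Hba-x* from the promoters. In ∆θ1 they became -0.33, -0.46 and -0.10 (*Hba-x*, *Hbq1b*, *Hbq1a*) with DESeq2 and -1.08, -1.21 and -0.84 with TMM factors. *Hbq1b* in ∆θ1 became -0.29 without its fragment with the most counts and -0.060 from Hba-1 alone. *Hbq1a* in ∆θ2 became 0.0016 without the edited fragment. In ∆θ1/θ2 the values became 0.053, 0.034 and 0.034 with DESeq2, 0.013 for *Hba-x* from Hba-2 alone, 0.013 for *Hbq1a* from Hba-1 alone, and 0.014 (*Hbq1b*) and 0.058 (*Hbq1a*) without the edited fragments. With single replicates left out, ranges that crossed 0 were -0.13 to 0.023 (*Hbq1b*) and -0.12 to 0.038 (*Hbq1a*) in ∆44/48 from R1, -0.14 to 0.13 (*Hbq1b*) in ∆θ1, and -0.038 to 0.051, -0.10 to 0.061 and -0.12 to 0.065 (*Hba-x*, *Hbq1b*, *Hbq1a*) in ∆θ1/θ2. Of 432 recomputed values of a gene or ratio in a deletion against WT, 396 kept their direction and side of the threshold, 3 kept their direction but passed only under an alternative, and 33 reversed, the latter including those that left out 1 replicate. Among those that reversed, *Hba-x* and *Hbq1b* in ∆θ1 also passed with TMM factors. For the θ1 edit, the θ2 edit and the interaction, 14 of 237 recomputed values reversed, none by leaving out a replicate. TMM factors gave -0.40, -0.47 and -0.33 for the θ1 edit, 0.37, 0.41 and 0.28 for the θ2 edit (*Hba-x*, *Hbq1b*, *Hbq1a*) and 0.83 for the interaction at *Hbq1a*. DESeq2 gave 0.025 for the θ2 edit at *Hbq1b* and 0.25 for the interaction at *Hbq1a*. Without its fragment with the most counts *Hbq1b* had -0.052 (θ1 edit) and 0.042 (θ2 edit), and the interaction became -0.21 (*Hba-x*) and -0.26 (*Hbq1b*) without flanks and -0.088 (*Hba-x*) with counts within 1 Mb as library size.

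For ratios and shares, groups without overlap numbered 0 for *Hbq1a* to *Hbq1b* without flanks, 1 for *Hba-x* to *Hbq1b* without the fragments with the most counts, and 1 (θ1) and 0 (θ2) for the shares without flanks. The θ2 edit changed the ratio of *Hbq1a* to *Hbq1b* by -0.24 with fragments wholly within the windows (exact permutation p = 0.025) and by -0.48 without the fragments with the most counts (p = 0.035 in the same exact test). Neither p was adjusted. With fragments wholly within, 977 bp of *Hbq1a* remained, of which the edited θ2 fragment is 645 bp. An effect of its new DpnII site cannot be told apart there. The θ1 edit changed the ratio of *Hba-x* to *Hbq1b* by -0.011 without flanks, by -0.025 with fragments wholly within, and by -0.031 to 0.12 with single replicates left out. For the θ2 share the θ2 edit gave -3.77 points without flanks, -3.26 from Hba-2 alone (exact permutation p = 0.06) and -6.74 to -4.04 with single replicates left out, where p was 0.05 in the exact test without ∆θ1/θ2 replicate 3. For the θ1 share the θ1 edit gave -4.04 points without flanks, 0.017 from Hba-2 alone and -1.09 to 0.13 with single replicates left out. The causes of these changes were not tested. The ∆θ1 libraries hold 1984 to 5328 cis counts from the promoters, the least of all, and intervals in experiment 2 are wider than in experiment 1.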
